A study of Homo sapiens with 6 samples.

Results

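The secreted plasma protein genes examined here are ALB, AFP, FGA, FGB, FGG, SERPINA1, TF and APOA1, 8 genes whose products fetal or adult liver cells release into blood. They were located by their hg19 positions, and every candidate METTL14 island within 5 kb of a gene was taken. That gave 17 of 67802 candidate islands in the DRB table and 14 of 38696 in the untreated table. APOA1 had no DRB island. All 8 genes had at least 1 untreated island.

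METTL14 is the RNA-binding partner of METTL3 in the nuclear complex that writes N6-methyladenosine on RNA, and the complex can act while RNA is still being transcribed. Albumin carries fatty acids, hormones and drugs in blood, and alpha-fetoprotein is its fetal relative, re-expressed in many liver cancers. The fibrinogen chains build clots, alpha-1-antitrypsin inhibits neutrophil elastase, transferrin carries iron, and apolipoprotein A-I is the main protein of high-density lipoprotein. Hepatocyte factors such as HNF1 drive several of these promoters.

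The samples were chromatin libraries of HepG2, a human hepatocellular carcinoma line. The DRB group had 1 anti-HA immunoprecipitate (IP) and 1 input library, from cells given 100 µM DRB, an inhibitor of the elongation kinase CDK9, for 3 h. The untreated group had 2 IP and 2 input libraries, which the deposited table does not keep apart, and nothing in the labels says whether they came from separate cultures. Cells of both groups carried METTL14 from a lentivirus, with HA at its N-terminus and EGFP at its C-terminus, after puromycin selection and a sort for high GFP, so occupancy is that of an overexpressed tagged protein. An anti-HA library of cells without the tag is not among the samples. ALB and AFP are also markers of the labelled cell type, but chromatin reads do not measure whether they were expressed. Because the replicates are pooled, the spread between them is unknown, and the 95% intervals given are exact for counting error alone. These intervals make no allowance for islands having been called on the same IP reads.

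Candidate islands are runs of 200 bp windows that SICER called on IP reads, and they need not be enriched over input. Fold is the ratio of IP to input reads, scaled by the authors by 0.861 with DRB and by 1.07 untreated. It was below 1 at 2 of the 17 DRB islands and 2 of the 14 untreated islands of the 8 genes. Nuclear candidate islands held 1977419 IP and 1330018 input reads in the DRB table, and 14495388 IP and 14661480 input reads in the untreated table. The median candidate was 2.0 kb wide with a fold of 1.51 with DRB, and 4.8 kb wide with a fold of 1.08 untreated. Reads outside candidate islands are not in the tables, so a stretch without an island has no value here. Positions are on hg19, counted from 1.

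Promoter sequence is shown for the genes whose transcription start lay under a candidate island and whose promoter held an HNF1-type match, and for the inner start of SERPINA1. The sequences are from RefSeq on GRCh38.p14, 250 bases before to 50 after a start, on the strand of the gene, and their coordinates belong to that build alone. Capitals mark GTTAAT, the core of an HNF1 site, and TATAAA, on either strand. ALB is at chr4:73404037-73404336 (plus strand), AFP at chr4:73435971-73436270 (plus), FGB at chr4:154562730-154563029 (plus), FGA at chr4:154590693-154590992 (minus) and the inner SERPINA1 start at chr14:94388553-94388852 (minus).
ALB: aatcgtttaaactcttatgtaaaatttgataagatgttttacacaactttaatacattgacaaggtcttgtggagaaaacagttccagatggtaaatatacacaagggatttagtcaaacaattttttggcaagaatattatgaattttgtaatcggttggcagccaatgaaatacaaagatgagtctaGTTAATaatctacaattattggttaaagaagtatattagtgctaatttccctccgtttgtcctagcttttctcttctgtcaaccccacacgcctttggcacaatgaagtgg
AFP: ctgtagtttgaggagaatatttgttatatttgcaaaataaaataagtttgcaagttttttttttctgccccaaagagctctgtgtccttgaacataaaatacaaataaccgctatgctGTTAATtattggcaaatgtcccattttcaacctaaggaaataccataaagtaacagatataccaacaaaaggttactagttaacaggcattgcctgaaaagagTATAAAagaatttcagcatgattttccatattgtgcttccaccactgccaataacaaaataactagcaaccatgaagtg
FGB: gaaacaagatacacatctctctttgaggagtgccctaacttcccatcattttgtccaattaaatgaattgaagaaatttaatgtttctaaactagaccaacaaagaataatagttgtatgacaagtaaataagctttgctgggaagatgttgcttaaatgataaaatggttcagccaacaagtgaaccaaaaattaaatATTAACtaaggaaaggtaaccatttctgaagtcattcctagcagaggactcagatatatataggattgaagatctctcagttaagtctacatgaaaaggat
FGA: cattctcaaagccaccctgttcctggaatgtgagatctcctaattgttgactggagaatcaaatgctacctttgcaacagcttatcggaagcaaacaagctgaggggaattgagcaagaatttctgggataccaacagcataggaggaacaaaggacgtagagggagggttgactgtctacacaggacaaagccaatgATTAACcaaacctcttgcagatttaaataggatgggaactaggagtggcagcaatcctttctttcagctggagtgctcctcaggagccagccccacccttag
SERPINA1: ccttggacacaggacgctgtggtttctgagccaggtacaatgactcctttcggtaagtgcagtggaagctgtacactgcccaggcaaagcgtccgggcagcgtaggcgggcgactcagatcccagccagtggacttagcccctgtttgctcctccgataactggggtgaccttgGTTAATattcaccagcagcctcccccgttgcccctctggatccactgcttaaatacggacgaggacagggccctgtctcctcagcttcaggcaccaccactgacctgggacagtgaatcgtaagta

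GTTAAT was found in 6 of the 10 promoters that the table holds for the 7 matched genes, and in 6.88% of all 35116 promoters there. The 6 belong to 5 genes, with both overlapping windows of FGB among them. The 5 were ALB, AFP, FGB, FGA and, at its inner start only, SERPINA1. In ALB, FGA and FGB the match began 61, 52 and 51 bases before the start, in AFP 132 and in SERPINA1 76 bases before it. TATAAA was found in AFP only among the 7, and in 11.5% of all promoters. FGG and TF held neither motif in these windows. The windows of TF include an outermost start 84395 bases upstream of its other start, farther than the 32.9 kb length of the gene used here. APOA1 was not matched. The motif does not overlap with TATAAA in any of these windows, and a match is a description of letters, not of a bound site.

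The summed excess of IP over input at the plasma protein genes was small. With DRB, 1 of the 17 islands was in the authors' significant list, a single window beyond the 3′ end of SERPINA1. Over all DRB candidates 4.76% were significant. In untreated cells 1 of the 14 islands was significant, the island over APOA1, and 5.1% of all untreated candidates were. With 1 island each, these shares cannot be told from those of all candidates. Summed over all islands of the 8 genes, the fold was 1.28 (1.11 to 1.47) with DRB, from 501 IP and 337 input reads, and 1.09 (1.05 to 1.12) untreated, from 7243 IP and 7149 input reads. The islands were called on these same IP reads, so an interval above 1 is not by itself evidence of enrichment. The summed folds depended on the scaling: they were 0.850 with DRB and 1.01 untreated with the median candidate of each table set to a fold of 1, and 1.00 with DRB and 1.02 untreated with scaling to nuclear candidate reads. The median island had a fold of 1.26 with DRB, below the candidate median of 1.51, and 1.09 untreated, against a candidate median of 1.08. Above the candidate median lay 3 of the 17 DRB islands and 7 of the 14 untreated ones. The islands at the 8 genes were wider than most candidates. Their median width was 2.8 kb with DRB and 7.8 kb untreated, against 2.0 and 4.8 kb for all candidates. The part of width in these folds was not tested.

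**Figure D1:**
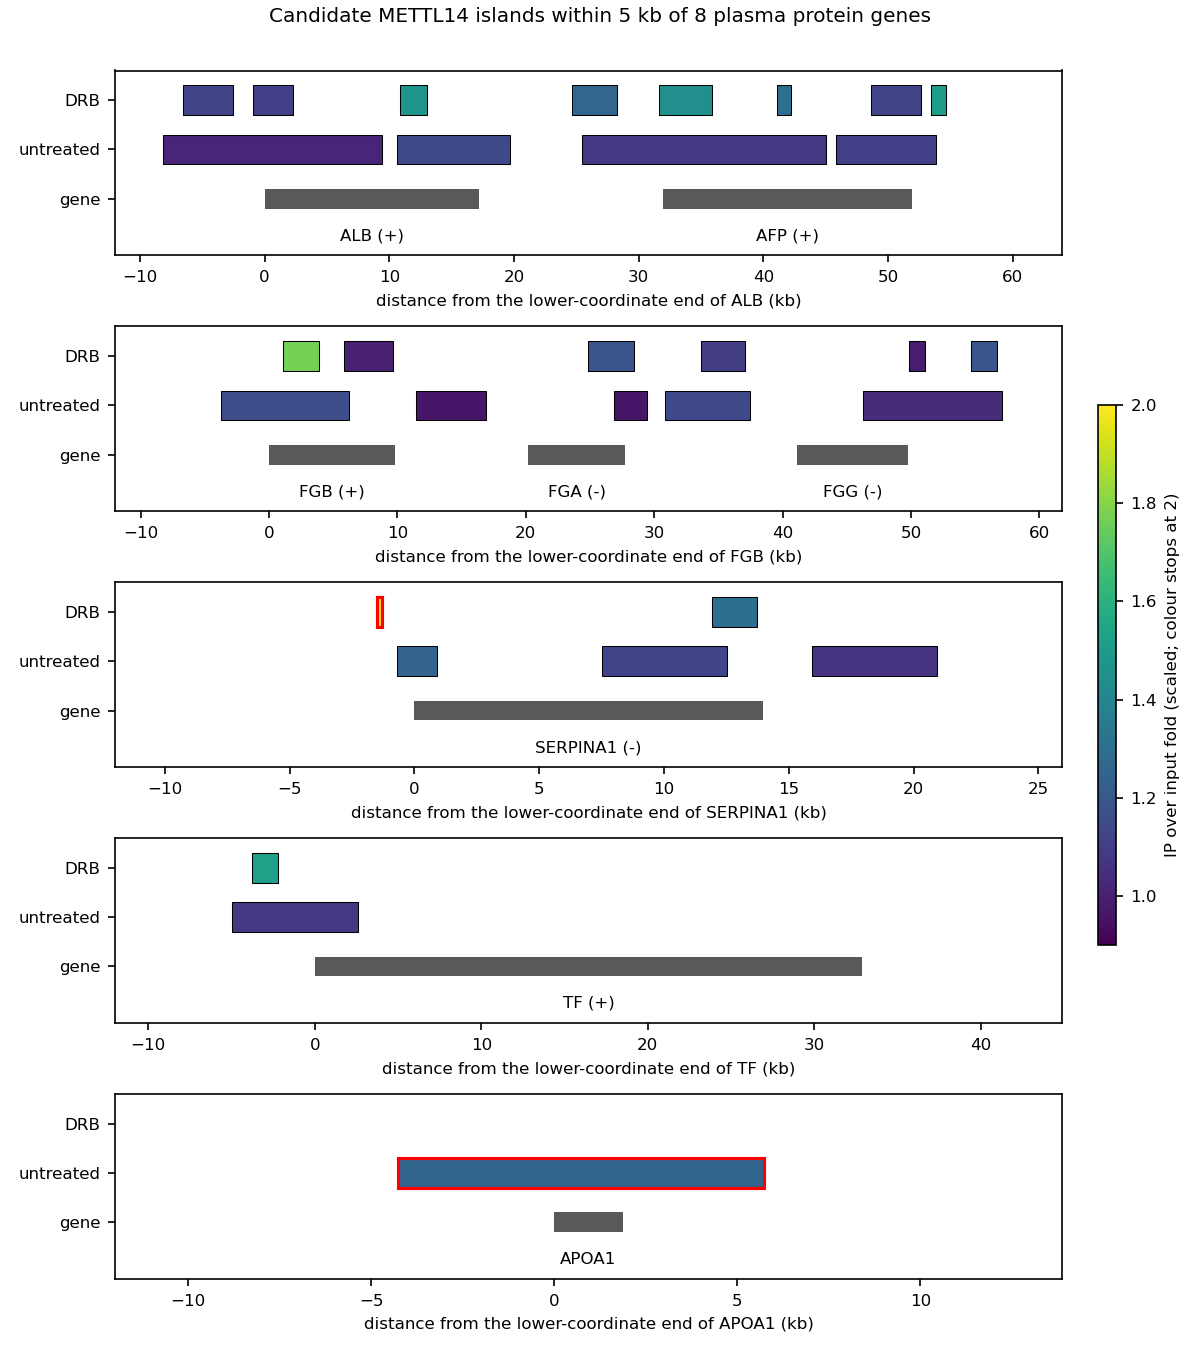
Candidate islands (boxes) with DRB and in untreated cells over the 8 genes (grey bars), by distance in kb from the lower-coordinate end of the first gene in each panel; signs in brackets give the strand, fill gives the fold and a red edge marks the significant islands. The untreated islands cover most of ALB and AFP, TF has islands only near its start, and APOA1 has 1 untreated island and no DRB island.

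The albumin and alpha-fetoprotein genes lie side by side on chromosome 4. ALB (74269956 to 74287129, plus strand) had 3 DRB islands. The island over its start, at 74269001 to 74272200, had 36 IP and 28 input reads, 1.11-fold (0.66 to 1.88). One upstream at 74263401 to 74267400 had 43 IP and 33 input reads, 1.12-fold. Inside the gene, 74280801 to 74283000 had 24 IP and 14 input reads, 1.48-fold (0.73 to 3.09). IP and input could not be told apart at any of the 3. In untreated cells ALB had 2 islands that together covered 93.0% of the gene. The one over the start, 74261801 to 74279400, had 1086 IP and 1151 input reads, 1.01-fold (0.93 to 1.10). The one over the 3′ part, 74280601 to 74289600, had 518 IP and 487 input reads, 1.14-fold (1.01 to 1.29), with an FDR of 0.00832 from the authors' caller. Untreated ALB was therefore measured over nearly its whole length, at a depth where a fold of 1.14 over the start would have entered the significant list.

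AFP (74301880 to 74321891, plus strand) had 5 DRB islands with folds from 1.12 to 1.51 and 14 to 47 IP reads each. The deepest lay over the start, at 74301601 to 74305800, with 47 IP and 28 input reads, 1.44-fold (0.89 to 2.40). In untreated cells 2 islands covered 96.0% of the gene. The first, 74295401 to 74315000, runs from 6.48 kb upstream to 13.1 kb inside and had 1239 IP and 1233 input reads, 1.08-fold (1.00 to 1.17). The second, 74315801 to 74323800, had 372 IP and 360 input reads, 1.11-fold (0.96 to 1.29). Their folds stood at the middle of all untreated candidates, at the 50.0th and 59.6th percentile. Summed over both genes, the fold was 1.25 (1.02 to 1.53) with DRB and 1.07 (1.02 to 1.12) untreated, with 0 of 8 and 0 of 4 islands significant.

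The fibrinogen genes FGB, FGA and FGG lie in a row on chromosome 4, FGB on the plus strand and the others on the minus strand. They encode the beta, alpha and gamma chains of 1 protein. Summed over the cluster, the fold was 1.19 (0.95 to 1.49) with DRB over 6 islands, and 1.07 (1.01 to 1.13) untreated over 5 islands, and no island was significant in either table.

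FGB (155484132 to 155493959) had the highest fold of the cluster in both tables. With DRB the island at 155485201 to 155488000, from 1.07 to 3.87 kb after the start, had 35 IP and 17 input reads, 1.77-fold (0.97 to 3.37), and the authors' FDR was 0.0032. In untreated cells the island over the start, 155480401 to 155490400, had 655 IP and 608 input reads, 1.16-fold (1.03 to 1.29), with an FDR of 0.00129. Both stayed under the significant list, which at those input counts took 42 IP reads with DRB and 675 untreated. In the exact binomial test, adjusted p was 0.382 with DRB and 0.111 untreated (Benjamini-Hochberg). Toward its 3′ end FGB showed no excess of IP, with 22 IP and 19 input reads (0.997-fold, 0.51 to 1.95) in the DRB island at 155490001 to 155493800.

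FGA (155504280 to 155511897) had 1 DRB island, over its start at 155509001 to 155512600, with 43 IP and 31 input reads, 1.19-fold (0.73 to 1.96). The untreated island over the same start, 155511001 to 155513600, had 188 IP and 210 input reads, 0.96-fold (0.78 to 1.18), the lowest untreated fold at the 8 genes. The intervals of both included 1. An untreated island at 155495601 to 155501000, between FGB and FGA and within 5 kb of each, had 0.96-fold too (0.81 to 1.14). The one between FGA and FGG, 155515001 to 155521600, had 445 IP and 420 input reads, 1.14-fold (0.99 to 1.30). These shared islands count for both genes beside them.

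FGG (155525286 to 155533902) had 3 DRB islands, and none overlapped the gene body. The nearest ended 0.099 kb upstream of the start, at 155534001 to 155535200, and had 23 IP and 20 input reads, 0.99-fold (0.52 to 1.90). Its input density was 2.38 times the DRB candidate median, the highest at the 8 genes, and that of the next island upstream, at 155538801 to 155540800 with 1.19-fold, was 2.21 times. The part of input density in these folds was not tested. In untreated cells the island over the start, 155530401 to 155541200, had 719 IP and 746 input reads, 1.03-fold (0.93 to 1.15), with input at 1.32 times the median.

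SERPINA1 (chromosome 14, 94843084 to 94857029, minus strand) encodes alpha-1-antitrypsin and held the only significant DRB island. It was a single 200 bp window at 94841601 to 94841800, 1.28 kb beyond the 3′ end of the gene, with 19 IP and 2 input reads. The fold was 8.18 (1.97 to 72.4) and the authors' FDR 2.64e-09. With the counting error of the input included, the exact binomial test gave an unadjusted p of 0.000758 and an adjusted p of 0.353 (Benjamini-Hochberg over all DRB candidates), so the call was not kept. Among the 17 DRB islands it alone lay over no untreated candidate, where 52.1% of all DRB candidates lay over one. Windows of this kind were often called with DRB: of 1413 single-window DRB candidates 437, 30.9%, were significant. The median over all 1413, significant or not, was 12 IP and 3 input reads.

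At the 5′ part of SERPINA1 the DRB island at 94855001 to 94856800 had 18 IP and 12 input reads, 1.29-fold (0.59 to 2.94). Hepatocytes start SERPINA1 transcripts downstream of the start that monocytes use, and the inner RefSeq start lies 2033 bases after the outermost one. The 3 untreated islands had 1.25-fold (0.95 to 1.65) over the 3′ end, 1.12-fold (0.95 to 1.33) in the gene and 1.07-fold (0.91 to 1.25) upstream. The island in the gene ran from 1.43 to 6.43 kb after the hg19 start, and the DRB island from 0.23 to 2.03 kb. The inner start was not placed on hg19 here. The one over the 3′ end, at 94842401 to 94844000, had 119 IP and 102 input reads and lay 0.6 kb from the DRB window. None of these was significant, and every interval included 1.

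TF (chromosome 3, 133464977 to 133497850, plus strand), the longest of the 8 genes at 32.9 kb, had islands only near its start. With DRB there was 1 island, wholly upstream at 133461201 to 133462800, with 23 IP and 13 input reads, 1.52-fold (0.74 to 3.27). In untreated cells 1 island over the start, 133460001 to 133467600, had 403 IP and 402 input reads, 1.08-fold (0.93 to 1.24). Candidate islands covered 0% of the gene body with DRB and 7.98% untreated, against 25.9% and 93.0% of ALB. Neither island was significant.

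APOA1 (chromosome 11, 116706467 to 116708338) held the only significant island in untreated cells. No DRB candidate lay within 5 kb, and the nearest, at 116677801 to 116681600, was 24.9 kb away with 1.47-fold. In untreated cells the island at 116702201 to 116712200 had 614 IP and 526 input reads, 1.25-fold (1.11 to 1.41). The authors' FDR was 1.42e-06, and the exact binomial test gave an adjusted p of 0.00794 (Benjamini-Hochberg over all untreated candidates). Its input density was 1.01 times the candidate median. The excess was modest in size: 87.3% of untreated candidates had a fold at or below it. The untreated island over the 3′ end of SERPINA1 also had 1.25-fold, from 102 input reads, where the authors' limit asked for a fold of 1.48. At APOA1, with 526 input reads, that limit was 1.21. The 2 islands thus differ in total reads and not in fold. The APOA1 island is 10.0 kb wide and the SERPINA1 one 1.6 kb. Input per kb was no higher at APOA1, 52.6 reads against 63.8 at SERPINA1. APOA1 fills 18.7% of the 10.0 kb island, which reaches 4.27 kb below and 3.86 kb above the gene. RefSeq places APOC3, another apolipoprotein gene, and the antisense gene APOA1-AS next to APOA1, so the reads cannot be assigned to 1 gene. The next untreated island, 5.27 kb below APOA1 and so just outside the limit, had 275 IP and 241 input reads, 1.22-fold, with an FDR of 0.00363. The island farthest from its gene but inside the limit was the DRB island 4.90 kb upstream of FGG.

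**Figure D2:**
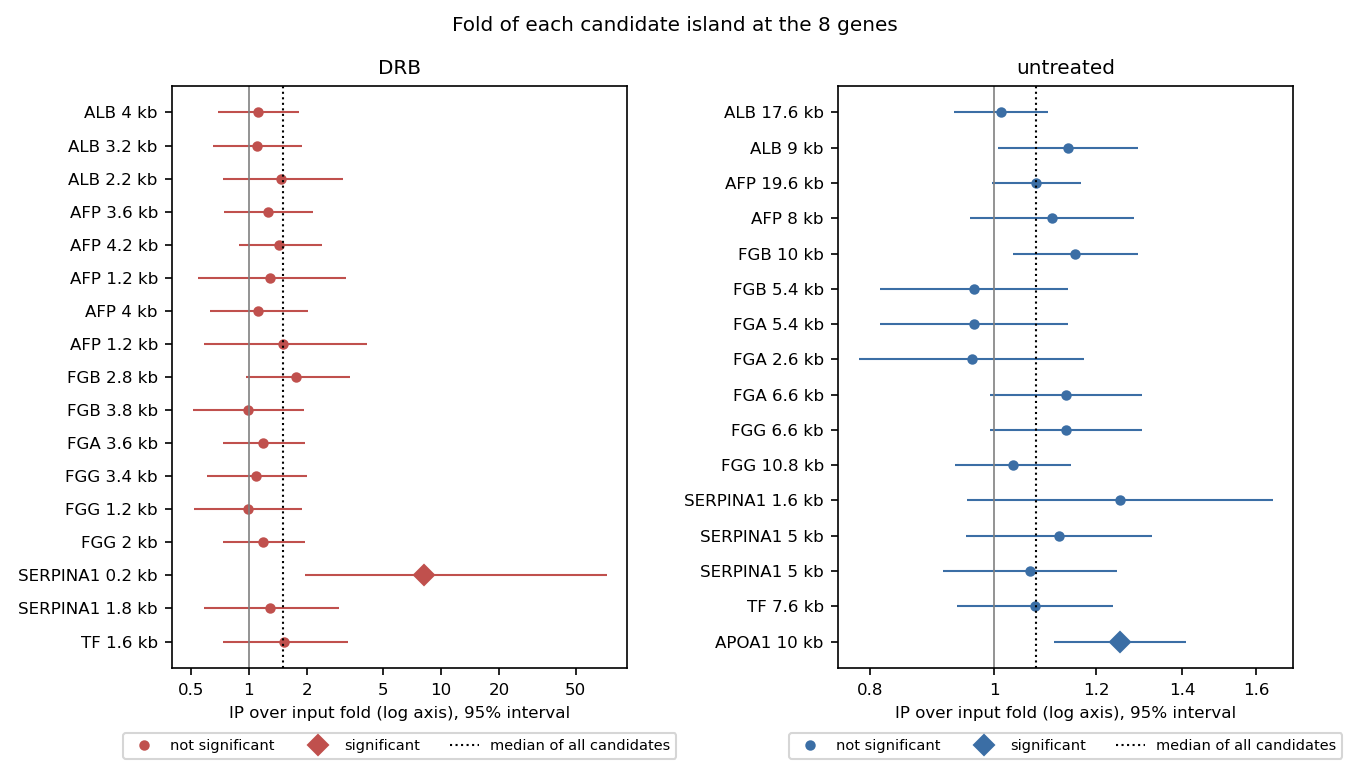
Fold of every candidate island at the 8 genes with DRB (left) and untreated (right), on log axes; points are islands named by gene and width, bars are exact 95% intervals of counting error, diamonds are the significant islands, and the dotted line is the median of all candidates. Islands shared by 2 fibrinogen genes appear under both. Only the diamonds at SERPINA1 (8.18-fold, DRB) and APOA1 (1.25-fold, untreated) were significant, and the untreated intervals are much the narrower.

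How much enrichment could have been called differs between the tables. At the input counts of these islands the authors' p-value limit asked for a fold of 1.80 to 5.16 with DRB and of 1.13 to 1.48 untreated. A computed limit of this kind matched 99.8% of the authors' DRB calls and nearly all untreated ones. The whole interval lay under the fold needed for 2 of the 17 DRB islands and for 5 of the 14 untreated ones. For the other islands without a call the interval reached the fold needed, so enrichment of that size is not shown to be absent.

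With the input's counting error included, calls were fewer. At an adjusted p of 0.05 in the exact binomial test (Benjamini-Hochberg), 0 of the 17 DRB islands and 1 of the 14 untreated islands had more IP than scaled input, where all candidates gave 0.00885% with DRB and 5.17% untreated. At an unadjusted p under 0.05, in either direction, there were 1 of the 17 with DRB and 3 of the 14 untreated, where all candidates gave 12.9% with DRB and 20.0% untreated. At an adjusted p of 1e-04 no island at the 8 genes passed in either table, and the shares of all candidates were 0.00442% with DRB and 0.7% untreated. Both significant islands, at SERPINA1 and APOA1, also had an FDR under 1e-05 from the authors' caller, as did 1.47% of DRB and 3.15% of untreated candidates.

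**Figure D3:**
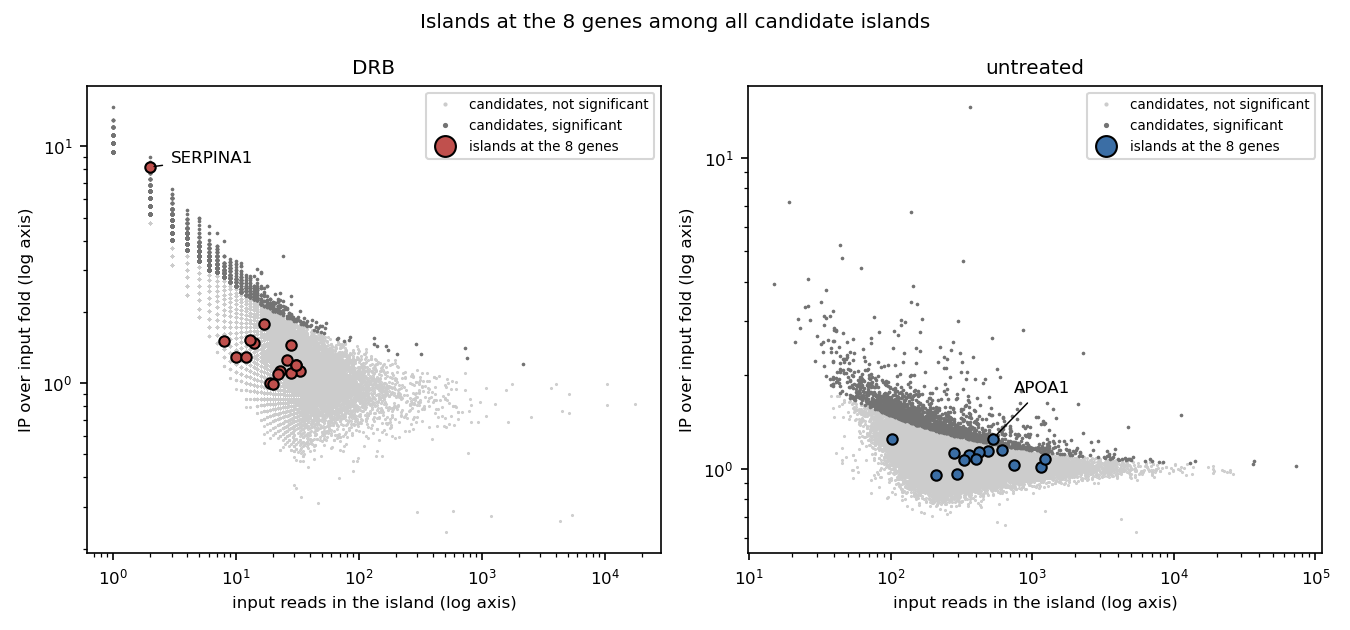
Fold against input reads of all nuclear candidate islands with at least 1 input read, with DRB (left) and untreated (right), both axes logarithmic; dark points are significant candidates and large points the islands at the 8 genes. The SERPINA1 island sits among candidates with 2 input reads, and APOA1 at 526 input reads near the lower edge of the significant ones.

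The comparison of DRB with untreated cells asks whether METTL14 occupancy differs when elongation is blocked. Of the 14 untreated islands, 10 lay over DRB candidates, as 61.1% of all untreated candidates did. No difference in fold was called at these 10. The exact conditional test of the 4 read counts (Benjamini-Hochberg over 23639 untreated islands) called 0 of 10, the lowest adjusted p was 0.740, and 0 of 10 had an unadjusted p under 0.05. Over all pairs 0.47% were called lower and 0.0931% higher with DRB, and 2088 had an unadjusted p under 0.05.

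The DRB over untreated ratio was above 1 at 9 of the 10 islands, with a median of 1.16, and the median of all pairs was 1.22. At AFP's 5′ island it was 1.25 (0.89 to 1.75), from a fold of 1.34 with DRB and 1.08 untreated. At ALB's 5′ island it was 1.10 (0.77 to 1.58), and at FGB's 1.18 (0.75 to 1.87). The exception was the island between FGA and FGG, with 0.96 (0.52 to 1.80). Each of these intervals included 1. Islands were called on IP reads in each table separately, and those at the 8 genes held 14 to 47 IP reads with DRB and 119 to 1239 untreated. How far this selection at unlike depth enters the ratios was not tested.

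Summed per gene, the ratio ran from 1.03 (0.75 to 1.44) at FGG to 1.42 (0.68 to 3.09) at TF in 6 of the 7 genes with islands in both tables. At SERPINA1 it was 2.04 (1.07 to 4.12), and 1.16 (0.52 to 2.65) without the single-window island. Summed over all islands it was 1.18 (1.02 to 1.36), and 1.14 (0.98 to 1.32) without that window. These sums run over regions called separately in each table, 44.0 kb with DRB and 118.8 kb untreated, and 4 untreated islands, that of APOA1 among them, had no DRB island. Over the 16 DRB and 10 untreated islands that lay over one another, 43.8 kb and 96.8 kb, the ratio was 1.15 (0.99 to 1.33), an interval that includes 1. The direction depended on the scaling: with the median candidate of each table set to a fold of 1 the summed ratio was 0.84 (0.73 to 0.97), and with scaling to nuclear candidate reads it was 0.98 (0.84 to 1.13). The islands differ in extent, 2.6 kb untreated and 3.6 kb with DRB at the FGA start but 17.6 and 7.2 kb at the ALB start, and the folds were taken over unequal stretches of sequence.

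The genes were also set against the other candidate islands out to 100 kb on each side, leaving out islands of any of the 8 genes. RefSeq places AFM beside AFP, SERPINA6 and SERPINA11 beside SERPINA1, and APOA4 and APOC3 on one side of APOA1. The flanks may therefore hold genes of related families and are not a background free of them. The ratio of the gene's fold to that of its flanks had an interval that included 1 at all 7 genes with DRB and all 8 untreated. With DRB it ran from 0.80 (0.53 to 1.20) at FGG to 1.49 (0.76 to 3.10) at SERPINA1. In untreated cells it ran from 0.95 (0.86 to 1.05) at ALB to 1.13 (0.94 to 1.35) at FGB. At APOA1 the gene had 1.25-fold and its untreated flanks 1.16-fold (1.07 to 1.26), a ratio of 1.08 (0.94 to 1.25), and 1 of the 5 flanking islands was significant. SERPINA1 came nearest to a local excess in untreated cells, with 1.12-fold over the gene and 0.99-fold (0.94 to 1.06) in 9 flanking islands, a ratio of 1.12 (0.99 to 1.27). With flanks of 50 kb its ratio was 1.15 (1.00 to 1.31), with the lower bound just above 1. FGB, FGA and FGG share the same 2 untreated flanking islands, with 324 IP and 358 input reads, and their ratios are not separate comparisons.

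**Figure D4:**
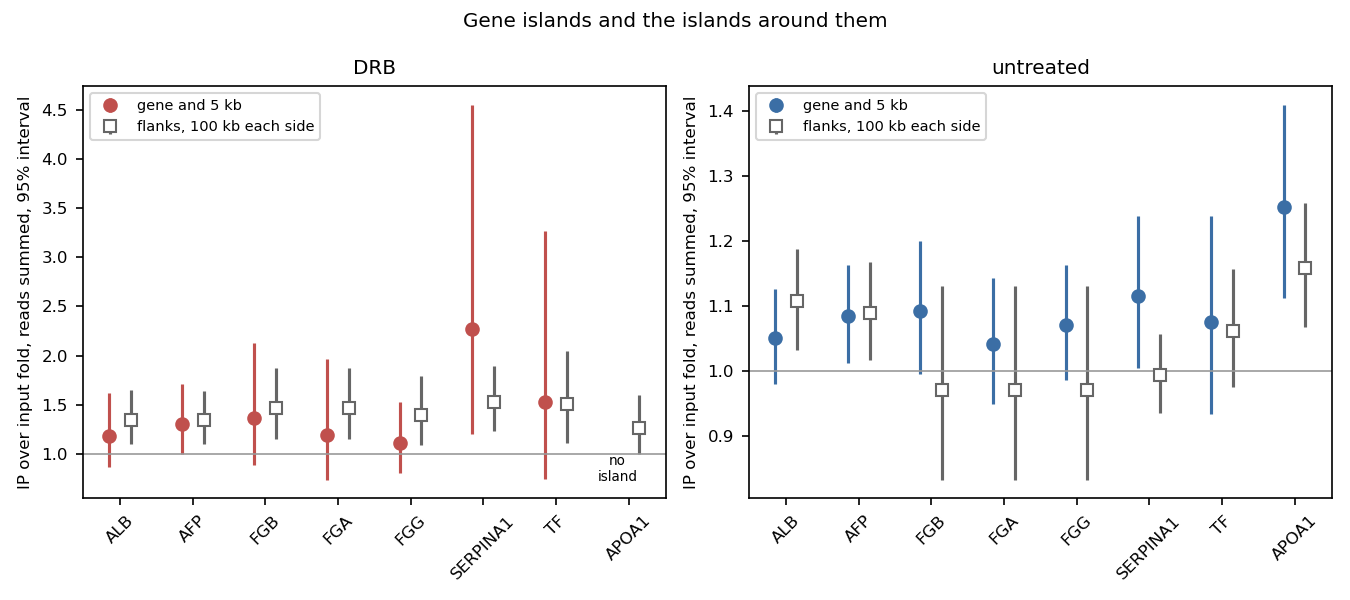
Fold from summed reads of each gene's islands (filled circles) and of the islands up to 100 kb beyond (open squares) with DRB (left) and untreated (right); bars are exact 95% intervals of counting error, and the axes differ in range. Gene and flank intervals overlap at every gene with an island, and APOA1 has no DRB island.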

How the data were processed

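Anti-HA ChIP-seq of HA-METTL14 gave single-end reads of 50 nt, per the labels' protocols. Tools in the submitters' processing notes are SICER, which called the islands, Bowtie 1.1.2 and FastQC 0.11.5, with the build hg19. SICER's settings and the way the untreated replicates were combined were not given in the sources used here. The deposited tables have no headers. The authors deposited whole read counts per island for IP and input, not normalized, with a p-value, a fold (a ratio) and an FDR. The deposited ratio is IP over input reads times 1 constant per table. For islands with input reads and a fold above 1, the deposited p-value equals a Poisson tail that takes the scaled input as exact. The significant lists are the islands with an FDR under 1e-04.

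The 8 genes, their 5 kb extension and the lists were chosen with earlier results of these data known. All 8 genes are named. Islands were joined to genes by at least 1 bp of overlap. Each fold has a 95% Clopper-Pearson interval, made from the share of IP reads. IP was tested against scaled input with a two-sided exact binomial test, and DRB against untreated with a two-sided exact conditional test (Fisher's noncentral hypergeometric distribution), each adjusted by Benjamini-Hochberg over the whole table. Both were tried on simulated counts over a fixed set of islands. That trial had no step choosing islands by IP reads, so it cannot show how such selection affects the tests. Ratios of summed reads have exact conditional intervals and no p. Reads are not independent molecules. A wider list of plasma protein genes was planned but not run, since no hg19 annotation was used here. Values were computed with SciPy 1.17.1, pandas 2.3.3 and numpy 2.4.6 under Python 3.11.15, and plotted with matplotlib 3.10.9.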

Additional observations from a re-analysis of the deposited data

How the results depend on the processing

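The significant DRB island near SERPINA1 was lost without the 5 kb extension (0 of 9 islands) and when the exact binomial test was used, at adjusted p limits of 1e-04 and 0.05 (0 of 17). The untreated APOA1 island was lost only by the binomial test at 1e-04 (0 of 14), among the extensions, FDR limits and binomial thresholds tried. The binomial test differs by construction in counting the error of the input. Scaling moved the summed folds. With the median candidate set to a fold of 1 they were 0.850 with DRB and 1.01 untreated, and with scaling to nuclear candidate reads 1.00 with DRB and 1.02 untreated. The summed DRB over untreated ratio was then 0.843 and 0.976, against 1.18 with the authors' scaling, so its direction rests on the scaling. For the island pairs, 0 of 10 were called under either scaling, 0 of 9 with 50% of the shorter island covered and 0 of 7 with each gene's reads as 1 unit, while 1 and 4 of the 10 ratios were above 1 under the median and the nuclear scaling. With flanks of 50 kb, 1 untreated gene stood above its flanks, SERPINA1 with a ratio of 1.15 (1.00 to 1.31); the cause was not tested. Without the extension FGG and TF had no DRB island and no value, and the SERPINA1 fold with DRB was 1.29, against 2.27 with it. The values that could be computed, 13 without the extension and 15 with 10 kb, lay within the counting intervals. The alternatives without the SERPINA1 window and with overlapping islands only were chosen after seeing the data. No paired analysis was possible because the tables do not keep replicates apart, and no replicate could be left out for the same reason. The DRB islands held 14 to 47 IP reads each and the untreated ones 119 to 1239.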

Other observations

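Of the nearest DRB islands beyond the 5 kb limit of each gene, only that of TF was significant. It lay 33.6 kb below the gene on chromosome 3 at 133429801 to 133431400, with 17 IP and 4 input reads, 3.66-fold, and an FDR of 5.54e-05 in the authors' deposited table. In the 100 kb flanks of the 8 genes, counting an island shared by neighbouring genes once, 5 of 45 DRB islands were significant, 11.1%, where 4.76% of all DRB candidates were. In untreated cells 1 of 28 was, 3.57%, beside APOA1, where 5.1% of all untreated candidates were. The difference between the tables was not tested. These calls take the scaled input as exact. With the input's counting error included, 0.00885% of all DRB candidates had more IP at an adjusted p of 0.05 in the exact binomial test. Values of that test for the flanking islands are not given here.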
